A study of Homo sapiens with 28 samples.

Results

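Small nucleolar RNAs (snoRNAs) are short nuclear RNAs that pair with other RNAs and guide the proteins bound to them to a nucleotide that is then modified. Box C/D snoRNAs (SNORD genes) carry fibrillarin and guide 2'-O-methylation. Box H/ACA snoRNAs (SNORA genes) carry dyskerin and guide the change of uridine to pseudouridine. Their main targets are ribosomal RNA and the spliceosomal RNAs, a few members act in the cutting of pre-ribosomal RNA, and most human members are released from introns of a host gene.

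The members described here are genes whose symbol begins with SNORD or SNORA and a digit, read from probe sets (groups of probes summarised to 1 value) that name 1 gene. A gene was kept when its log2 intensity was above 5 on at least 4 of 28 arrays, and its brightest probe set stood for it. That left 95 of 219 named snoRNA genes, 56 of 158 C/D (35.4%) and 39 of 61 H/ACA (63.9%), among 9285 genes tested in all. Members were thus chosen by their measured intensities on these arrays, so a gene could enter through the single group where it was high, and counts over members describe those that passed. Of the members, 43 C/D and 32 H/ACA genes had a mean above 5 in all 6 groups, and 39 and 22 were above 5 on all 28 arrays. Just inside the limit lay SNORD116-21, above 5 on 4 arrays with a highest value of 5.35. Just outside it lay SNORA26, SNORD114-27 and SNORA80B, each above 5 on 3 arrays, with highest values of 5.45, 5.28 and 5.55.

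RNA came from CHL-1, an established human melanoma line, given BAY 1238097, a BET inhibitor, or its solvent DMSO. The groups were DMSO at 4 h (4 arrays) and 24 h (4 arrays), 75 nM at 4 h (5 arrays) and 24 h (5 arrays), and 468 nM at 4 h (5 arrays) and 24 h (5 arrays); the doses were labelled IC50 and IC90. All groups were 1 cell line under 1 culture protocol, replicate numbers only name arrays within a group, and no label tells whether replicates were separate cultures, so p-values measure the spread between arrays, which may be technical. The design asked how transcription changed with dose and time, and the comparison of box classes was added here.

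HEXIM1 and MYC, which commonly rise and fall when BET proteins are blocked, changed: HEXIM1 was higher by 1.3 ± 0.13 (SE, log2 scale) and MYC fell by 0.54 ± 0.13 at 468 nM and 24 h (limma adjusted p = 8.76e-09 and 0.00185). Of 10 melanocyte and neural crest markers 3 were measured, and MITF, PMEL, MLANA, TYR and TYRP1, which define pigment cells, did not pass the limit. The summed intensity of that list was 1399.7 to 1548.4 in DMSO and 1022.5 to 1321.7 at 468 nM at 4 h, and 1520.5 to 1822.0 in DMSO at 24 h and 1707.6 to 2636.7 at 468 nM and 24 h. No keratinocyte or endothelial marker of 10 each was measured, and 1 of 10 was for fibroblasts and 1 of 10 for leukocytes, whose summed intensity at 24 h was 67 to 82.9 in DMSO and 57.2 to 82.1 at 468 nM. The 1 measured leukocyte gene was called higher against DMSO at 4 h, by 0.712 at 75 nM and 0.812 at 468 nM. From 4 h to 24 h it was called lower at 75 nM (-0.647) and 468 nM (-0.884), and not in DMSO (-0.057). The part of these markers in the results was not tested. Values are log2 of the deposited intensity, each relative to its own array, and differences are fitted with limma and called changed at a Benjamini-Hochberg adjusted p below 0.05. Shifting the arrays to hold 10 reference genes level moved the median over all genes from -0.027 to -0.218 for 468 nM against DMSO at 4 h and from -0.005 to -0.147 for 468 nM against 75 nM at 4 h. It moved that median from 0.001 to 0.139 for DMSO over time, from 0.014 to 0.11 at 75 nM over time, from 0.017 to 0.264 at 468 nM over time, and from 0.01 to 0.12 for the difference of the 468 nM effect between the times.

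Host genes were found by position in the RefSeq gene table without regard to strand, so a gene on the opposite strand also counted as a host. SNORA13, for example, lay in EPB41L4A (minus strand) and in EPB41L4A-AS1 (plus strand). Of the members 79 lay in exactly 1 other gene, 12 lay in several and 4 (SNORA50C, SNORD13, SNORD32B and SNORD3C) in none. Their 82 host genes are known to include many ribosomal protein and translation factor genes, whose transcripts start with a C followed by a run of pyrimidines, the 5' terminal oligopyrimidine (TOP) start that ties translation to growth signals. A start was counted here when the first transcribed base in RefSeq (GRCh38.p14) was C and the next 4 or more were C or T, read on the gene's own strand. It was found in 16 of 60 host genes with a sequence window (26.7%), in 404 of 7506 tested genes (5.38%) and in 1104 of 27305 windows of all genes (4.04%). This motif was chosen after the values had been seen, and a match describes letters only. The snoRNA genes themselves had no window, so host starts are shown instead, for each member whose values on single arrays are given below and that lies in 1 gene with a window, with 15 bases before and 15 from the annotated start and the pyrimidine run in capitals.
SNX5 (host of SNORD17), chr20:17968780-17968809, minus strand: gcaccgaaacgcggtCTTTCTCTagacgcg
RPS12 (host of SNORA33), chr6:132814554-132814583, plus strand: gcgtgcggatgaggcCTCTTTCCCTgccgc
CCNB1IP1 (host of SNORD126), chr14:20333265-20333294, minus strand: ctgtctctccactttCTTTCCCTCTCCgtt
ZFAS1 (host of SNORD12 and SNORD12B), chr20:49278627-49278656, plus strand: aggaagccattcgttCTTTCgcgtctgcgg
SNHG12 (host of SNORD99), chr1:28581859-28581888, minus strand: tcgcggcttcagcgcCCTTTCTCCCCgccg
EP400 (host of SNORA49), chr12:131949927-131949956, plus strand: ccgcgccgccgcttcCTCCCgccggggccc
RPL27A (host of SNORA3B), chr11:8682777-8682806, plus strand: ttggcgaaggccttcCTTTTTCgtctgggc
RPS13 (host of SNORD14A), chr11:17077653-17077682, minus strand: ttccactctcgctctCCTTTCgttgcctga
EIF4G1 (host of SNORD66), chr3:184314591-184314620, plus strand: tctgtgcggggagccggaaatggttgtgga
TNPO2 (host of SNORD41), chr19:12723918-12723947, minus strand: ctcagcccaggtttcagtccagcggaactg
AP1G1 (host of SNORD71), chr16:71808820-71808849, minus strand: gggagccgccattttggatgttcggttcct
RNF149 (host of SNORD89), chr2:101308687-101308716, minus strand: gtgcgcagcggccccgaccccgcctcagtc
ZBED3 (host of SNORA47), chr5:77087271-77087300, minus strand: tttcgggcgaaggccacacgtgacggcccc
The last 5 hosts hold no such run at the annotated start, and the share with one in this selection is not that of all hosts. A split of members by these letters does not sort true TOP hosts from others. The hosts RPL3, RPL17 and EEF1B2, for example, had no such run at the annotated start and were counted as other hosts. At 468 nM against DMSO at 24 h, 11 C/D members with a host start so counted had a median difference of 0.171. The median was 0.199 for 30 with another host. For H/ACA members the medians were 0.229 (7 members) and 0.172 (22 members). Over time in DMSO they were 0.034 and 0.316 for C/D, and 0.804 and 0.408 for H/ACA members.

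SNORD13, SNORD46 and SNORD105B were the brightest C/D genes in all 6 groups, and SNORA38B the brightest H/ACA gene. SNORD13, the U13 snoRNA linked to acetylation of small-subunit rRNA, had the highest mean of the C/D genes, 12.65 over all arrays. Its group means lay between 12.56 ± 0.18 (SD, n = 4) in DMSO at 24 h and 12.73 ± 0.11 (SD, n = 5) at 468 nM and 24 h, and its arrays overlapped between those groups. SNORD46 and SNORD105B had group means of 11.34 to 11.70 and 11.21 to 11.61. Among H/ACA genes SNORA38B was brightest, with 10.82 to 11.92, ahead of SNORA23 at 9.84 to 11.25 and SNORA68 at 9.89 to 10.78. The levels of probe sets with different probes are not on 1 scale, so this order is that of the signals and not of the amounts. The snoRNAs listed for pre-rRNA processing were measured in part. SNORD3C (a U3 copy), SNORD13, SNORD14A and SNORD14E (U14 copies) passed, while SNORD3A, SNORD118, SNORD22, SNORA73A and SNORA73B did not enter as members. Of the imprinted tandem clusters, 6 of 18 SNORD116 genes passed, and none of 9 SNORD113, 31 SNORD114 or 25 SNORD115 genes. The lowest and highest member means were 4.34 and 12.65 for C/D genes and 4.43 and 11.35 for H/ACA genes.

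Members varied together from array to array. After each group's mean was taken away, the median correlation between 2 members over the 28 arrays was 0.261 among C/D genes, 0.247 among H/ACA genes and 0.202 between the classes, against 0.008 over all tested genes; these are descriptions across genes that share arrays. The residual SD had a median of 0.38 over members and 0.225 over all tested genes. In each group at 24 h the array of the second title set (DMSO replicate 1, 75 nM replicate 2 and 468 nM replicate 2, which share 1 run of the numbers in their titles) had the lowest H/ACA level. Whether short RNAs were recovered equally from all samples by the column extraction was not tested. An array probe inside an intron also binds unspliced host RNA, so a member's value can hold both.

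The box classes differed between the arrays at 4 h and those at 24 h, and the cause was not tested. The level of a class on an array was taken as the median over its members of log2 intensity minus the member's mean over all 28 arrays. For H/ACA genes it was -0.433 to -0.161 on the 4 DMSO arrays at 4 h and 0.007 to 0.372 on those at 24 h, with group means of -0.324 ± 0.126 and 0.244 ± 0.162 (SD, n = 4 each). Over all treatments the 14 arrays at 4 h lay between -0.521 and -0.088 and the 14 arrays at 24 h between 0.007 and 0.784, so the times did not overlap. For C/D genes DMSO gave -0.316 to 0.058 at 4 h and -0.277 to 0.306 at 24 h, which overlap. The H/ACA level minus the C/D level of the same array was -0.298 to 0.027 in DMSO, -0.364 to -0.035 at 75 nM and -0.432 to 0.024 at 468 nM, all at 4 h. At 24 h it was 0.066 to 0.284 in DMSO, 0.096 to 0.313 at 75 nM and 0.058 to 0.473 at 468 nM, above every array at 4 h. Within each time the 3 treatments overlapped.

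**Figure D1:**
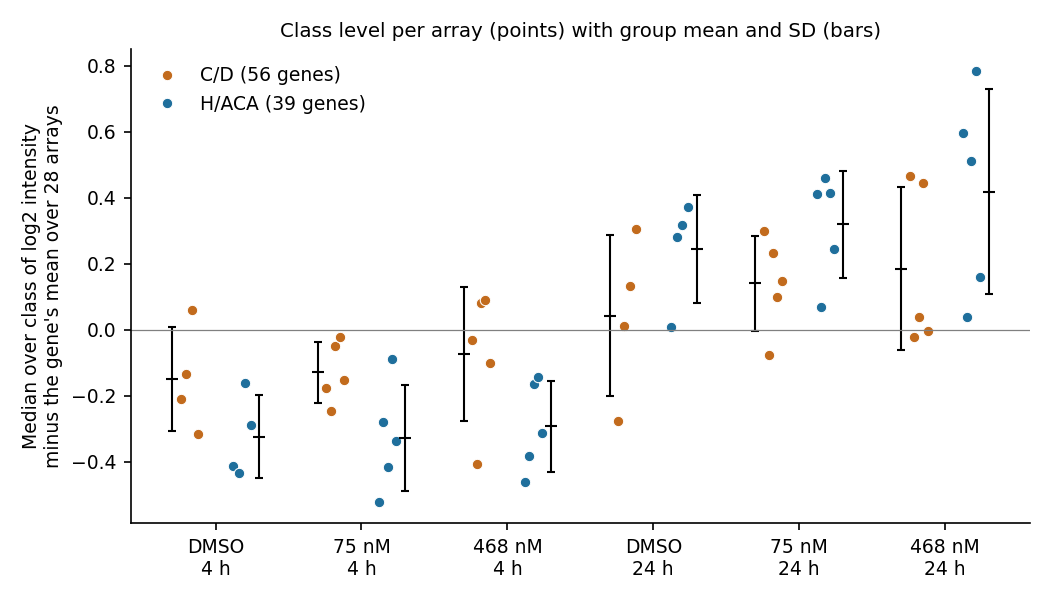
Class level on each of 28 arrays (points; median over 56 C/D or 39 H/ACA genes of log2 intensity minus the gene's mean over all arrays) by group, with group mean and SD as bars. The H/ACA points at 24 h all lie above 0 and those at 4 h all lie below 0, while C/D points of the 2 times overlap.

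In DMSO, 12 members rose from 4 h to 24 h and none fell; 12.6% of members were called, against 5.23% of all tested genes (2.63% higher, 2.61% lower). They were 8 of 39 H/ACA genes (SNORA21, SNORA23, SNORA33, SNORA50A, SNORA50C, SNORA57, SNORA68 and SNORA80E) and 4 of 56 C/D genes (SNORD17, SNORD59A, SNORD116-24 and SNORD126). The median difference was 0.578 over H/ACA genes, 0.177 over C/D genes and 0.001 over all tested genes, and 33 H/ACA and 37 C/D genes had a positive difference. The 15 measured SCARNA genes, small Cajal body RNAs that guide the same modifications on spliceosomal RNAs, had a median of 0.79, of which 2 rose. Over genes above 5 on all 28 arrays the medians were 0.471 (22 H/ACA) and 0.256 (39 C/D), and over genes with a mean of 7 or more they were 0.561 (16 H/ACA) and 0.341 (26 C/D). The count of 12 became 7 without DMSO 4 h replicate 1, 5 without DMSO 4 h replicate 2, and 19, 7, 7 and 5 without DMSO 24 h replicates 1, 2, 3 and 4, with no member called lower in any of these fits. It was 27 with arrays shifted by reference genes, 4 without the filter on dim genes and 24 without the 3 arrays of the second title set at 24 h, again with none lower. SNORD17, SNORD126, SNORA21, SNORA33 and SNORA50A passed the test whichever array was left out, and each of the other 7 lost its call without at least 1 array. These fits kept the filter made on all 28 arrays, so they do not test how a member entered. SNORD126 had a mean above 5 only in DMSO at 24 h (5.15), the higher group of this comparison.

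SNORD17, a long C/D snoRNA from an intron of the endosomal sorting gene SNX5, showed the largest called rise in DMSO. In ascending order its arrays read 6.01, 6.15, 6.33 and 6.76 in DMSO at 4 h, and 7.37, 7.83, 7.87 and 8.25 in DMSO at 24 h. Every 24 h array was above every 4 h array, and the fitted rise was 1.52 ± 0.31 (SE; limma adjusted p = 0.00577). Both doses gave the same picture, with 5.87, 6.01, 6.02, 6.10 and 6.68 at 75 nM and 4 h against 7.12, 7.79, 8.25, 8.48 and 8.69 at 24 h (1.93 ± 0.28, adjusted p = 3.21e-05). SNX5 itself was -0.17 ± 0.12 in DMSO (adjusted p = 0.38) and fell by 1.11 ± 0.10 at 468 nM over the same hours (adjusted p = 2.12e-09). There SNORD17 rose by 2.03 ± 0.28 (adjusted p = 9.28e-07), from 5.72, 5.82, 5.97, 6.36 and 6.66 to 7.25, 8.0, 8.06, 8.57 and 8.82, so snoRNA and host moved in opposite directions.

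SNORA33, an H/ACA guide within the ribosomal protein gene RPS12, read 7.86, 7.88, 8.12 and 8.66 in DMSO at 4 h and 8.70, 9.43, 9.49 and 10.04 at 24 h. The groups did not overlap, though 0.04 separated the nearest arrays, and the rise was 1.28 ± 0.28 (adjusted p = 0.00912). With the DMSO groups fitted alone its adjusted p was 0.058. At 75 nM it rose by 2.12 ± 0.25 (adjusted p = 3.12e-06) and at 468 nM by 2.01 ± 0.25 (adjusted p = 2.32e-07), again without overlap. SNORA50A, from an intron of the deadenylation scaffold CNOT1, read 8.22, 8.39, 8.62 and 8.66 at 4 h and 9.04, 9.09, 9.24 and 9.5 at 24 h in DMSO (0.75 ± 0.16, adjusted p = 0.00788). Its rise at 468 nM was 1.09 ± 0.14 (adjusted p = 4.63e-07), while CNOT1 was at -0.07 ± 0.12 in DMSO and -0.22 ± 0.11 at 468 nM, neither past the test. SNORD126, a C/D member of the host CCNB1IP1, was dim: 3.66, 3.91, 4.25 and 4.51 at 4 h and 4.87, 5.2, 5.23 and 5.31 at 24 h in DMSO (1.07 ± 0.23, adjusted p = 0.00882). SNORA21 rose by 0.64 ± 0.15 (adjusted p = 0.0131) on its brightest probe set, and by 0.13 (adjusted p = 0.697) on the mean of its probe sets, which disagree.

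**Figure D2:**
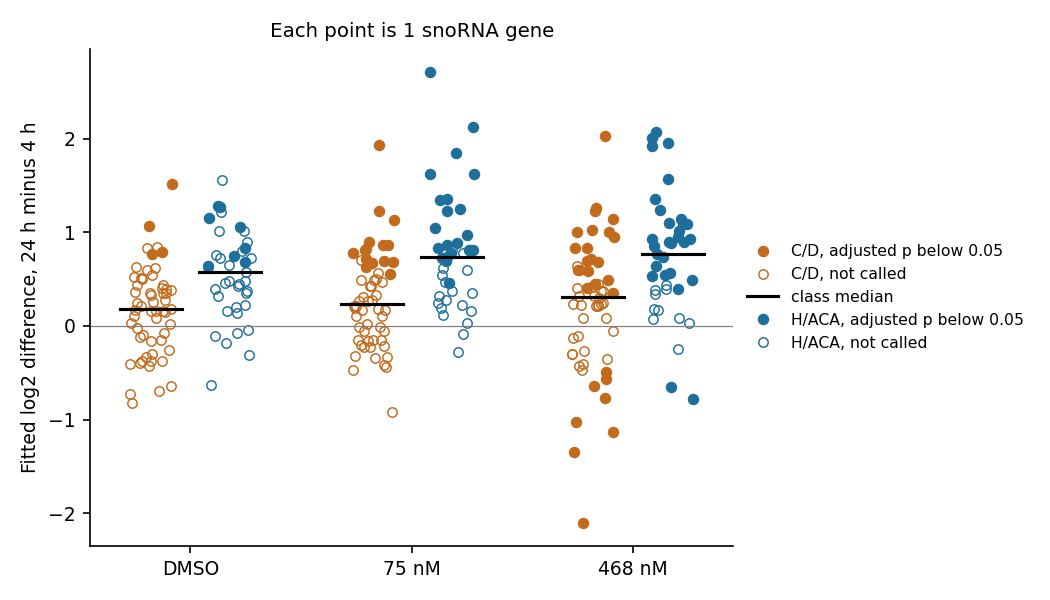
Fitted log2 difference between 24 h and 4 h for each of 56 C/D and 39 H/ACA genes in DMSO, 75 nM and 468 nM; filled points have a limma adjusted p below 0.05 and black lines are class medians. The H/ACA medians (0.578, 0.739 and 0.765) lie above the C/D medians (0.177, 0.237 and 0.309) in each treatment.

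The same comparison in treated cells was added after the data had been seen. These 2 comparisons share no arrays with each other or with DMSO. All 3 use 1 estimate of spread per gene, and the same title sets run through them, so they are not independent repeats. At 75 nM 36 members rose and none fell (37.9%, against 25.2% of all tested genes, 13.5% higher and 11.7% lower): 21 H/ACA and 15 C/D genes, with medians of 0.739 and 0.237. At 468 nM 27 H/ACA and 19 C/D genes rose while 2 H/ACA and 8 C/D genes fell (58.9%, against 52.3%, 26.3% higher and 26% lower), with medians of 0.765 and 0.309. The SCARNA genes had medians of 0.983 at 75 nM and 0.79 at 468 nM, so a rise over time was not particular to the H/ACA genes. With arrays shifted by reference genes the 46 rises and 10 falls at 468 nM became 63 and 4. In all 3 treatments 7 H/ACA genes (SNORA21, SNORA23, SNORA33, SNORA50A, SNORA57, SNORA68 and SNORA80E) and 3 C/D genes (SNORD17, SNORD59A and SNORD116-24) rose, and 32 of 39 H/ACA against 29 of 56 C/D genes had positive differences in all 3. Of all 9285 tested genes 158 (1.7%) rose in all 3 treatments and 2848 (30.7%) had positive differences in all 3, against 17.9% and 82.1% of H/ACA and 5.36% and 51.8% of C/D genes.

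SNORA72 had the largest rise at either dose, 2.71 ± 0.42 at 75 nM (adjusted p = 7.54e-05). Its arrays read 3.58, 5.23, 6.03, 6.05 and 6.11 at 4 h and 7.53, 7.67, 8.0, 8.34 and 9.03 at 24 h, and the lowest 4 h array stood 1.65 below the next. On the mean of its probe sets the rise was 1.26 (adjusted p = 0.000229). SNORA75, from an intron of the nucleolar protein gene NCL, rose by 1.63 ± 0.23 at 75 nM (adjusted p = 2.94e-05) and 1.36 ± 0.23 at 468 nM (adjusted p = 2.03e-05), where NCL fell by 0.70 ± 0.08 (adjusted p = 2.70e-08). SNORA60 rose by 1.95 ± 0.30 at 468 nM (adjusted p = 7.14e-06) and SNORA80E, within the splicing-related gene KHDC4, by 1.92 ± 0.30 (adjusted p = 6.23e-06). None of their arrays overlapped between the times.

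The falls over time at 468 nM were led by SNORD99, which shares the growth-linked non-coding host SNHG12 with other snoRNAs. SNORD99 passed the filter through the 468 nM group at 4 h, the only group where its mean was above 5. Its arrays read 5.27, 5.69, 6.0, 6.07 and 6.17 at 4 h and 2.5, 3.55, 3.69, 4.28 and 4.64 at 24 h (-2.11 ± 0.45, adjusted p = 3.37e-04), and SNHG12 fell by 1.63 ± 0.20 (adjusted p = 2.75e-07). SNORD14A, a U14 copy within RPS13, fell by 1.35 ± 0.23 (adjusted p = 2.41e-05). The other falls without overlap were SNORA55 (-0.78 ± 0.24), SNORD11 (-0.77 ± 0.18) and SNORA3B (-0.65 ± 0.15), and SNORD70, SNORD75, SNORD88B and SNORD1A fell with overlapping arrays. The copies within ZFAS1, a non-coding host of 3 members, went different ways at 468 nM. SNORD12 fell by 0.49 ± 0.18 (adjusted p = 0.025), from 7.79, 7.85, 8.23, 8.45 and 8.62 to 7.14, 7.63, 7.71, 7.77 and 8.25, which overlap. SNORD12B rose from 7.35, 7.62, 7.84, 7.85 and 8.19 to 8.06, 8.32, 8.38, 8.70 and 8.82 (0.69 ± 0.17, adjusted p = 0.00155), with 1 array at 4 h above the lowest at 24 h. SNORD12C was at -0.27 without a call, and ZFAS1 was at -0.08 ± 0.13 (adjusted p = 0.626). The fall of SNORD12 lost its call without 468 nM 4 h replicate 3 or 4 (adjusted p = 0.0882 and 0.0689) or 468 nM 24 h replicate 3 (0.103), and with arrays shifted by reference genes.

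At 4 h the compound changed few members. At 75 nM none of 95 was called, against 0.679% of all tested genes (0.334% higher, 0.345% lower), and 0 were called under each alternative run. At an unadjusted p below 0.05 limma gave 2 members (2.11%, against 8.72% of all tested genes), SNORD14A (0.50 ± 0.25) and SNORD123 (-0.71 ± 0.32). At 468 nM 3 members were called (3.16%, against 10.9% of all tested genes, 3.96% higher and 6.95% lower). All were C/D genes. The medians were 0.053 over C/D, -0.054 over H/ACA and -0.027 over all tested genes, and with arrays shifted by reference genes -0.137, -0.245 and -0.218, so the C/D median changed sign.

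SNORD99 was higher by 1.69 ± 0.48 (adjusted p = 0.0204). Only its mean at 468 nM and 4 h (5.84) was above 5, so it passed the filter through the group tested here. Its arrays read 3.51, 3.78, 4.06 and 5.24 in DMSO and 5.27, 5.69, 6.0, 6.07 and 6.17 at 468 nM, with the highest DMSO array 0.03 below the lowest treated one. Its host SNHG12 was higher by 1.05 ± 0.22 (adjusted p = 0.00143), as were the snoRNA hosts SNHG1 (0.91 ± 0.26) and SNHG5 (0.74 ± 0.20), 3 of 12 measured non-coding host genes, with none lower. SNORD3C, a copy of U3 that lies in no host, rose by 0.63 ± 0.21 (adjusted p = 0.0471), from 9.53, 9.55, 9.59 and 9.87 to 10.06, 10.09, 10.16, 10.41 and 10.63. SNORD66, within the translation factor gene EIF4G1, fell by 0.91 ± 0.29 (adjusted p = 0.0438), from 4.5, 4.69, 4.89 and 5.29 to 3.36, 3.36, 4.03, 4.35 and 4.56, so its arrays overlapped. The count of 3 became 0 without DMSO 4 h replicate 1 or 2 and 1 without DMSO 4 h replicate 4 or 468 nM 4 h replicate 3; SNORD99 was lost without DMSO 4 h replicate 1, 2 or 3 (adjusted p = 0.0677, 0.0507 and 0.0832). With arrays shifted by reference genes the split of 2 higher and 1 lower became 1 and 2.

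At 24 h 75 nM again left no member called (0.872% of all tested genes were, 0.398% higher and 0.474% lower), with medians of 0.103 over C/D, 0.13 over H/ACA and -0.016 over all tested genes. At an unadjusted p below 0.05 limma gave 2 C/D and 7 H/ACA genes (9.47% of members, against 15.9% of all tested genes). Among them were SNORA70G (1.18 ± 0.41) and SNORA75 (0.69 ± 0.24). At 468 nM 18 members were called, 18.9% against 45.6% of all tested genes (20.4% higher, 25.1% lower). Of these 9 C/D and 3 H/ACA genes rose, and 4 C/D and 2 H/ACA genes fell. With arrays shifted by reference genes the 12 rises and 6 falls became 8 and 7. The medians were 0.171 over C/D and 0.229 over H/ACA genes, against -0.019 over all tested genes, and their size without sign had a median of 0.325 over members and 0.335 over all genes. The standard error had a median of 0.241 over members and 0.149 over all genes. The H/ACA level minus the C/D level of an array averaged 0.201 ± 0.1 (SD, n = 4) in DMSO and 0.233 ± 0.169 (SD, n = 5) at 468 nM, a difference smaller than the spread.

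Among the called members most rises were in bright members and all falls in dim ones. Of members with a mean of 7 or more over all arrays (26 C/D and 16 H/ACA), 10 rose and 0 fell. Of those below 7 (30 C/D and 23 H/ACA), 2 rose and 6 fell. Over all tested genes there were 993 higher and 1155 lower of 4202 at 7 or more, and 903 and 1180 of 5083 below it. The share called at 7 or more was 26.9% of C/D, 18.8% of H/ACA and 51.1% of all genes. Below 7 it was 20%, 8.7% and 41%. For 9 members the call held whichever array was left out and under each other alternative that tested them: SNORD41, SNORD71, SNORD89, SNORA22, SNORA47 and SNORA49 among the rises, and SNORD11, SNORD111 and SNORA3B among the falls. The other 9 (SNORD14E, SNORD58A, SNORD60, SNORD116-14, SNORD116-15, SNORD116-24, SNORD1A, SNORD88A and SNORA50C) lost it without at least 1 array. All 3 called SNORD116 genes, of the imprinted cluster in SNHG14, were higher: SNORD116-14 by 0.67 ± 0.22, SNORD116-15 by 0.46 ± 0.19 and SNORD116-24 by 0.45 ± 0.17 (adjusted p = 0.0167, 0.0486 and 0.038). The dimmer SNORD116-1, SNORD116-20 and SNORD116-21 were at -0.04, 0.34 and 0.52 with no call. With DMSO 24 h replicate 1 left out, SNORD1A had an adjusted p of 0.0634. With 468 nM 24 h replicate 3 left out, SNORD88A had 0.0511.

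SNORD41, a C/D guide within the nuclear import gene TNPO2, read 7.29, 7.98, 8.22 and 8.25 in DMSO and 8.62, 8.84, 8.86, 9.31 and 9.40 at 468 nM. All treated arrays were above all DMSO arrays, and the rise was 1.07 ± 0.28 (adjusted p = 0.00279). TNPO2 fell by 0.85 ± 0.12 in the same comparison (adjusted p = 1.70e-06). SNORD71, within the clathrin adaptor gene AP1G1, read 7.74, 7.83, 8.28 and 8.46 in DMSO, 8.31, 8.51, 8.81, 8.85 and 9.0 at 75 nM, and 8.56, 8.65, 9.01, 9.61 and 9.69 at 468 nM. The 468 nM arrays cleared the DMSO arrays (1.03 ± 0.23, adjusted p = 0.000776) and overlapped with those at 75 nM. AP1G1 rose by 0.21 ± 0.09 (adjusted p = 0.0402). SNORD89 rose by 0.59 ± 0.16 (adjusted p = 0.00324), from 9.48, 9.74, 9.76 and 9.85 to 10.04, 10.29, 10.36, 10.38 and 10.43, with no overlap.

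Among H/ACA genes, SNORA22 read 9.61, 10.35, 10.35 and 10.44 in DMSO and 10.48, 10.65, 10.81, 11.08 and 11.11 at 468 nM (0.64 ± 0.18, adjusted p = 0.00578). The groups were 0.04 apart at their nearest arrays. SNORA49, within the chromatin remodelling gene EP400, rose by 0.60 ± 0.15 (adjusted p = 0.00175), from 8.79, 8.86, 8.87 and 9.27 to 9.34, 9.41, 9.64, 9.66 and 9.68. SNORA47, within ZBED3, rose by 0.59 ± 0.18 (adjusted p = 0.0096), from 9.24, 9.38, 9.47 and 9.63 to 9.86, 9.90, 10.06, 10.10 and 10.17. In none of the 3 did treated and DMSO arrays overlap. EP400 was at -0.01 ± 0.25 (adjusted p = 0.987) and ZBED3 at -0.47 ± 0.26 (adjusted p = 0.145).

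**Figure D3:**
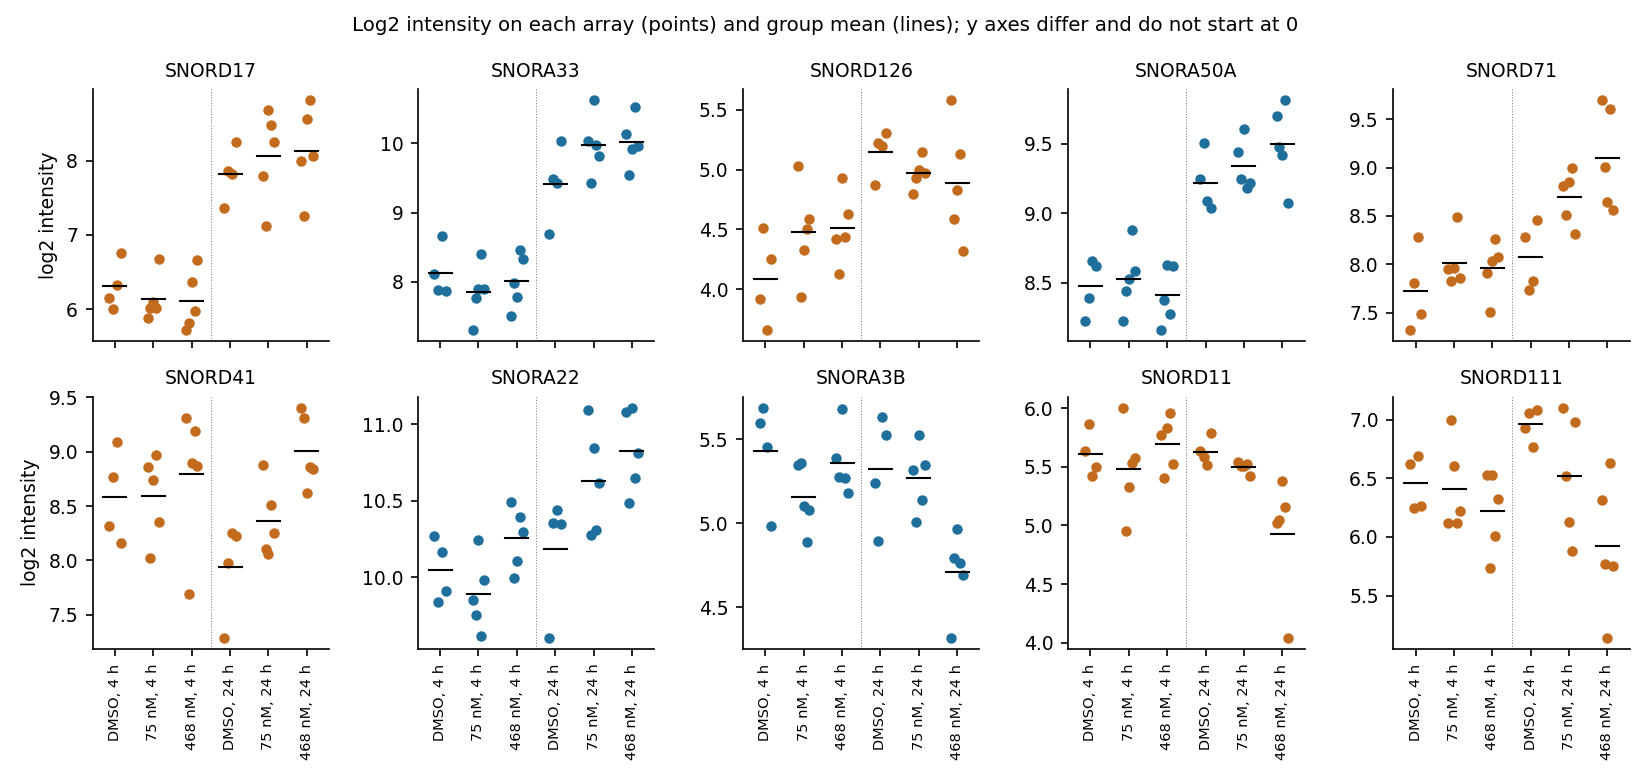
Log2 intensity of 10 members on each array (points) by group, with group means as lines; C/D genes in orange, H/ACA genes in blue. SNORD17, SNORA33 and SNORA50A separate by time in all treatments, SNORD71, SNORD41 and SNORA22 are higher at 468 nM and 24 h than in DMSO at 24 h, and SNORA3B, SNORD11 and SNORD111 are lower there.

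SNORD111, a C/D guide within the splicing factor gene SF3B3, had the largest fall. It read 6.77, 6.93, 7.06 and 7.09 in DMSO, 5.88, 6.13, 6.52, 6.98 and 7.10 at 75 nM, and 5.14, 5.75, 5.77, 6.31 and 6.63 at 468 nM. The 468 nM arrays lay below all DMSO arrays (-1.04 ± 0.26, adjusted p = 0.00199), and the 75 nM arrays spanned both. SNORD11 lies within NOP58, which codes for a core protein of the C/D particle. It read 5.51, 5.59, 5.63 and 5.79 in DMSO and 4.04, 5.02, 5.05, 5.15 and 5.38 at 468 nM, and fell by 0.70 ± 0.19 (adjusted p = 0.00472), while NOP58 fell by 0.70 ± 0.08 (adjusted p = 4.05e-08). SNORA3B, within RPL27A, fell by 0.62 ± 0.16 (adjusted p = 0.00275), from 4.90, 5.24, 5.53 and 5.63 to 4.32, 4.69, 4.77, 4.80 and 4.97. The highest treated array of SNORA3B exceeded the lowest DMSO array.

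For 52 members the single host gene, found without regard to strand, was itself tested (43 hosts). At 468 nM and 24 h the median difference was 0.171 over these snoRNAs and -0.224 over their hosts, and the snoRNA stood above its host for 39 of 52. For H/ACA genes that held in 20 of 22, with medians of 0.257 and -0.274, and for C/D genes in 19 of 30, with 0.097 and -0.161. Hosts of 25 members fell and of 3 rose, with a host counted once for each member inside it. Of all tested genes 25.1% fell and 20.4% rose. Of the 25, 4 snoRNAs fell too (SNORD11, SNORD111, SNORD1A and SNORD88A), 2 rose (SNORD41 and SNORD60) and 19 were not called. SNORD1A fell by 0.83 ± 0.26 (adjusted p = 0.0108) with SNHG16, which fell by 0.42 ± 0.09 (adjusted p = 6.51e-04). SNORD88A fell by 0.76 ± 0.26 (adjusted p = 0.0202) with C19orf48P, which fell by 1.12 ± 0.14 (adjusted p = 6.71e-07). SNHG17 fell by 1.25 ± 0.18 (adjusted p = 3.11e-06), while the 3 members inside it, SNORA71A, SNORA71C and SNORA71D, were at 0.27, 0.08 and 0.18 with no call. Across the 52 pairs Pearson's r was 0.3, a description over genes that share arrays and in part hosts. Over time in DMSO the snoRNA stood above its host for all 22 H/ACA genes, with medians of 0.675 and -0.125, and for 23 of 30 C/D genes.

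**Figure D4:**
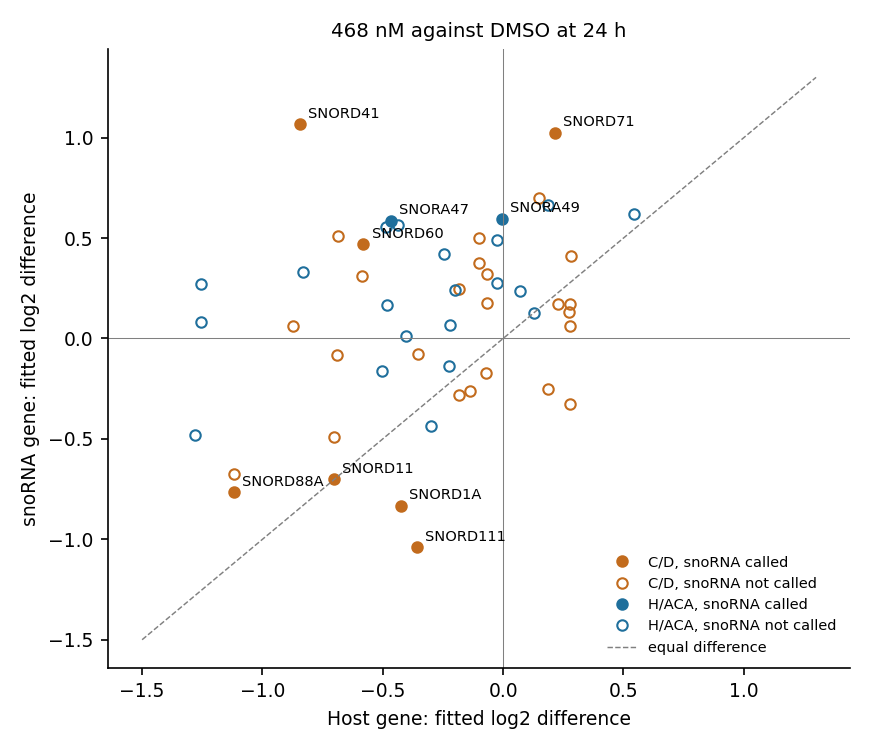
Fitted log2 difference of 52 snoRNA genes (vertical) against that of the 1 tested host gene that contains each (horizontal) for 468 nM against DMSO at 24 h; filled points are called snoRNA genes and the dashed line marks equal differences. For 39 of 52 the point lies above the line, with SNORD41 and TNPO2 farthest apart in opposite directions among the called genes.

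Of 3 measured C/D core proteins FBL, the methyltransferase fibrillarin, fell by 0.61 ± 0.10 (adjusted p = 3.07e-05) and NOP58 fell as given above. Of 3 measured H/ACA core proteins GAR1 fell by 0.78 ± 0.20 (adjusted p = 0.00186). Assembly factors fell in 4 of 10 (NUFIP1, RUVBL1, RUVBL2 and NOPCHAP1). Factors of processing, trafficking and turnover fell in 5 of 13, led by TCOF1, a cofactor of rRNA gene transcription (-1.03 ± 0.13), and NOLC1, which carries snoRNPs between nucleolus and Cajal bodies (-0.85 ± 0.10). Non-coding hosts fell in 4 of 12 (SNHG8, SNHG16, SNHG17 and SNHG19), and no gene of these 5 lists rose, against 20.4% higher and 25.1% lower of all tested genes. At 75 nM and 24 h none of these genes was called.

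Between the doses 468 nM and 75 nM differed for 0 members at 4 h (2.56% of all tested genes were called, 1.13% higher and 1.43% lower). At an unadjusted p below 0.05 limma gave 6 members there (6.32%, against 11.3% of all tested genes). At 24 h 5 members differed between the doses (5.26%, against 30.8%, 13.4% higher and 17.4% lower). SNORD14A was lower at 468 nM by 1.07 on the log2 scale (-1.07 ± 0.23, adjusted p = 0.000851). Its arrays read 4.38, 4.44, 4.67 and 4.80 in DMSO, 4.94, 5.04, 5.12, 5.26 and 5.29 at 75 nM and 3.44, 3.76, 3.79, 4.43 and 4.87 at 468 nM. The 2 doses lay on opposite sides of DMSO in their means, and neither dose was called against DMSO for this gene at 24 h. SNORA3B (-0.56 ± 0.15, adjusted p = 0.00599) and SNORD11 (-0.57 ± 0.18, adjusted p = 0.0193) were lower too, and SNORD35B (0.59 ± 0.18, adjusted p = 0.0145) and SNORD89 (0.42 ± 0.15, adjusted p = 0.0315) higher. SNORD11 lost its call without 468 nM 24 h replicate 5 (adjusted p = 0.0779), whose value of 4.04 was its lowest, and SNORD89 lost it without any of 5 arrays (75 nM replicates 1 and 2, 468 nM replicates 2, 3 and 4). The count of 5 became 9, 10 and 8 without 468 nM replicates 1, 4 and 5, and 8 without 75 nM replicate 4.

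A test of whether the effect of 468 nM differed between the times called 5 members (5.26%, against 23.5%, 10.8% higher and 12.7% lower). SNORD123, within the non-coding gene SNHG18, had the largest change of effect, 1.38 ± 0.45 (adjusted p = 0.0284). Only its mean at 468 nM and 24 h was above 5, so it lay near the filter limit and passed in part through the tested group. Its group means at 4 h were 4.996 ± 0.65 in DMSO (SD, n = 4) and 4.31 ± 0.60 at 468 nM (SD, n = 5), and at 24 h 4.62 ± 0.66 and 5.32 ± 0.34. The effect was lower at 24 h for SNORD1A (-1.02 ± 0.37), SNORD14A (-0.97 ± 0.35), SNORA15 (-0.97 ± 0.31) and SNORD11 (-0.79 ± 0.28). Each lost its call without at least 3 of the 18 arrays. The count fell to 2 or 3 without any one of the 468 nM arrays at 4 h, DMSO 4 h replicate 2 or 3, or DMSO 24 h replicate 2, 3 or 4. With arrays shifted by reference genes the split of 1 higher and 4 lower became 4 and 1. For 75 nM the same test in limma called 0 members (0.0323% of all tested genes were called). It gave 5 at an unadjusted p below 0.05 (5.26%, against 6.84% of all tested genes).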

How the data were processed

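The authors deposited 1 table of linear intensity values for 53617 probe sets on 28 arrays, summarised with RMA (robust multi-array average) per the submitters' processing notes; no source used here gives its version or the probe sets' genome build. RMA equalises the arrays, so a change shared by most transcripts is not seen. Intensities were taken to log2. Probe sets naming several genes were left out, 171 of them naming a snoRNA gene. Genes above 5 on at least 4 arrays were fitted with limma 3.58.1 in R 4.3.3 (6 group means, 22 residual and 3.84 prior degrees of freedom), with Benjamini-Hochberg adjustment over 9285 genes within each comparison; the fit was tested on simulated data. Tables were made with Python 3.11.15. Values are given as difference ± SE unless SD is named; the number of arrays limits precision. Named by rule are up to 5 called members a direction and comparison with the largest differences without overlap (for interactions, called), the 3 brightest of each class, the pre-rRNA processing snoRNAs, copies in 1 host that moved apart, and those at the filter's edge; other called members are named in part, chosen after their values were seen, or counted. The members and lists were chosen with earlier results of these data known. Alternatives were other filters, scalings, offsets, models, probe set means, a block, and each array left out.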

Additional observations from a re-analysis of the deposited data

Results flagged for a closer look

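Among 36 series of values (34 called members and the 2 class levels) in 6 groups, 216 sets of 4 or 5 arrays were screened for a value far from the rest, and 11 had one; chance alone gives about 1 in 20. The value stood highest for SNORD3C in DMSO 4 h replicate 3 (9.87), SNORD17 in 75 nM 4 h replicate 5 (6.68), SNORD71 in 75 nM 4 h replicate 4 (8.49) and SNORA49 in DMSO 24 h replicate 4 (9.27). It stood lowest for SNORD116-14 (7.04) and SNORD14E (5.10) in 75 nM 4 h replicate 1, SNORD41 in 468 nM 4 h replicate 2 (7.69) and SNORD59A in 468 nM 4 h replicate 3 (9.32). It also stood lowest for SNORA22 (9.61) and SNORA50C (6.91) in DMSO 24 h replicate 1, and for SNORD11 in 468 nM 24 h replicate 5 (4.04).

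The effect of 468 nM differed between 24 h and 4 h, by the interaction term in limma, for SNORD123 (1.38, adjusted p = 0.0284), SNORD11 (-0.79, adjusted p = 0.0385), SNORD14A (-0.97, adjusted p = 0.0421), SNORD1A (-1.02, adjusted p = 0.0451) and SNORA15 (-0.97, adjusted p = 0.0262).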

How the results depend on the processing

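No called difference of a single member changed sign under the alternatives run. Class medians without a call did: with the shift by reference genes the C/D median for 468 nM against DMSO at 4 h went from 0.053 to -0.137, and those for 468 nM against 75 nM at 4 h from 0.032 to -0.11 (C/D) and from 0.084 to -0.058 (H/ACA). For 75 nM against DMSO at 4 h the C/D median went from 0.001 to -0.048. For single members, 2758 repeated values stayed on the same side of the threshold, 335 lost it and 6 gained it. The count of 3 for 468 nM against DMSO at 4 h became 1 with a filter at 7 and 0 without a filter. For 468 nM against 75 nM the count of 0 at 4 h became 1 with an offset of 16, and 5 at 24 h became 3 with a filter at 7. For the difference of the 468 nM effect between times, 5 became 0 with a filter at 7, 0 without a filter, 2 with only the compared groups fitted and 3 without the 3 arrays of the second title set at 24 h. For DMSO over time, 12 became 4 without a filter, 27 with the shift by reference genes and 24 without those 3 arrays, and the C/D minus H/ACA median of -0.401 became -0.271 without a filter. The cause was not tested.

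With 1 array left out, counts ranged from 0 to 2 for 468 nM against DMSO at 4 h, 12 to 23 at 24 h, 4 to 10 for 468 nM against 75 nM at 24 h, and 2 to 6 for the difference of the 468 nM effect. They ranged from 5 to 19 over time in DMSO, 27 to 37 at 75 nM and 50 to 57 at 468 nM, and were 0 throughout (0 to 0) for the other 4 comparisons. The C/D minus H/ACA median ranged from 0.028 to 0.141 (75 nM, 4 h), 0.041 to 0.184 (468 nM, 4 h), -0.076 to 0.07 (75 nM, 24 h) and -0.125 to -0.003 (468 nM, 24 h) against DMSO. Over time it ranged from -0.464 to -0.315 in DMSO, -0.576 to -0.439 at 75 nM and -0.583 to -0.345 at 468 nM.

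Arrays of 1 title set deviated together more often than others: 33 of 66 same-set pairs had deviations correlated above 0.1, against 30 of 260 other pairs. The median correlation was 0.0982 for same-set pairs and -0.02 for other pairs. Sets 2 to 5 each held an array of every group, and set 1 an array of every treated group. The sets may therefore be replicate blocks, though no label says what they mark and the other 33 same-set pairs stayed at or below 0.1. The main fit did not use the sets, so any spread that arrays of a set share stayed in its residual spread. With the replicate block by title sets the counts were 3 (468 nM, 4 h) and 23 (468 nM, 24 h) against DMSO, 7 for 468 nM against 75 nM at 24 h, and 6 for the difference of the 468 nM effect. Over time they were 22 in DMSO, 41 at 75 nM and 61 at 468 nM. The planned search for box C letters was not run, since no member had a sequence window. The standard error for 468 nM against DMSO at 24 h had a median of 0.241 over members and 0.149 over all tested genes.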
